A study of Homo sapiens with 4 samples.

Results

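Neurofilament genes and their companions in the neuronal cytoskeleton were examined in HEK293 cells, a transformed human line raised from embryonic kidney cultures that carries adenovirus DNA. The 10 genes were NEFL, NEFM, NEFH, INA, PRPH, NES, MAP2, DCX, TUBB3 and GAP43, of 17217 genes that could be named on the array. They were chosen by name, as the genes whose RefSeq accession is carried by a probe, and with earlier results of these data in view, so their values are given as a description and no test was made on them. Each of the 10 had 1 target of 3 probes, which makes 30 probes of 71998. The series held 1 group of 4 arrays, labelled biological replicates 1 to 4, of untreated HEK293 cells kept in DMEM with serum and antibiotics. Per the study's methods each replicate was a separate plate of the same line with its own RNA extraction at confluence. Total RNA was copied from an oligo(dT) primer and hybridised in 1 colour to long oligonucleotide probes. With 1 group there was no comparison between conditions, and the spread over arrays is that between plates of 1 line in bulk RNA, where fewer cells with a transcript and less transcript per cell cannot be told apart.

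Neurofilaments are the intermediate filaments of neurons, and they fill the axon and set its calibre. NEFL, NEFM and NEFH are the light, medium and heavy subunits, of which the light one forms the core and the others carry long phosphorylated tails. INA (alpha-internexin) joins them in central neurons, PRPH (peripherin) in peripheral ones, and NES (nestin) is the filament protein of neural progenitors. MAP2 binds dendritic microtubules, DCX (doublecortin) those of migrating young neurons, TUBB3 is the beta-tubulin used as a neuronal marker, and GAP43 is a membrane protein of growth cones.

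A level is the log2 value of a gene on an array, taken from the mean of its probes. The distance is that level minus the baseline of the same array, which is the mean plus 2 SD of the 10 seminal control genes that the study took as not transcribed. In replicate order the baselines were 9.47, 9.94, 10.69 and 10.32 log2 units, with a mean of 10.10 ± 0.52 (SD, n = 4). The control genes AFG2A and SPATA13 stood just under it, at distances of -0.13 ± 0.15 and -0.38 ± 0.19, while the other 8 lay between -3.58 and -2.85. Without them the baseline averaged 7.78, and PRPH, MAP2 and GAP43, whose mean distances are below 0 in what follows, were above it. A distance below 0 means that a gene did not clear this bar and not that its transcript was absent. Probes have their own affinity, so distances do not rank transcripts between genes.

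Promoter sequence was shown for the genes of the set that had a single listed start and a higher level on replicates 1 and 3 than on replicates 2 and 4, a division described further on. They are the 250 bases before the start, 5′ to 3′ on the gene's strand, from RefSeq on GRCh38.p14. INA stands at chr10:103276888-103277137 on the plus strand, NES at chr1:156677408-156677657 on the minus strand, and GAP43 at chr3:115623260-115623509 on the plus strand.
INA: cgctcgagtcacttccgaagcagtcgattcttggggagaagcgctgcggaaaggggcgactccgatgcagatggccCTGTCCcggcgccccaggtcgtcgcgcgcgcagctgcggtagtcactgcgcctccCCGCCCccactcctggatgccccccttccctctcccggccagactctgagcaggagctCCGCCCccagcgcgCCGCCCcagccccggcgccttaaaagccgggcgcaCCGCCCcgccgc
NES: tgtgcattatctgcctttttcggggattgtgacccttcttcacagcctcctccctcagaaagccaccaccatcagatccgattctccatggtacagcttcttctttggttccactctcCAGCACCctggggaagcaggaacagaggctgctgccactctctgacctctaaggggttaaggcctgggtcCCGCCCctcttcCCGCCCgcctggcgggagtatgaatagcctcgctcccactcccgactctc
GAP43: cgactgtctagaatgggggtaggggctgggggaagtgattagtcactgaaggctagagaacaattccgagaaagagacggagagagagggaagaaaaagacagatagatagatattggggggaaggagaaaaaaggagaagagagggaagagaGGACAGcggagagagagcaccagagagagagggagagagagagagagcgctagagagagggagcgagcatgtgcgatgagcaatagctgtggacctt
Capitals mark the letters of 4 motifs, each searched on both strands. CAGCACC and GGACAG are short parts of the element bound by REST, the repressor that keeps many neuronal genes silent in other cells. TATAAA is the TATA box and GGGCGG the GC box bound by Sp1. None of these motifs overlapped another in the windows shown. INA held GGACAG 174 bases before the start and 4 copies of GGGCGG. NES held CAGCACC 132 bases before the start and 2 copies of GGGCGG, and GAP43 held GGACAG 97 bases before the start. Among 35116 promoters of the same length, CAGCACC was present in 6.16%, GGACAG in 17.2%, TATAAA in 10.7% and GGGCGG in 42.6%. The GC content was 72.8% for INA, 58% for NES and 51.6% for GAP43, beside a median of 58% over all promoters. A match of letters is no binding site, and binding was not measured. The table held more than 1 start for MAP2, DCX and TUBB3, and 1 for PRPH with TATAAA 31 bases before it. It held no start for NEFL, NEFM or NEFH, so the promoters of the neurofilament subunits could not be shown.

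Of the 10 genes, 6 had a mean distance above 0, beside 52.7% of all named genes. They were NEFL, NEFM, NEFH, INA, NES and TUBB3. All of these but NEFM, 5 of 10, were above the baseline on all 4 arrays, beside 45.0% of all genes. DCX alone, 1 of 10, was below on all 4 arrays, beside 39.8% of all genes. The median distance of the 10 genes was 0.78 log2 units, and that of all named genes was 0.26. Their median SD of the level over arrays was 0.65, against 0.42 for all named genes.

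**Figure D1:**
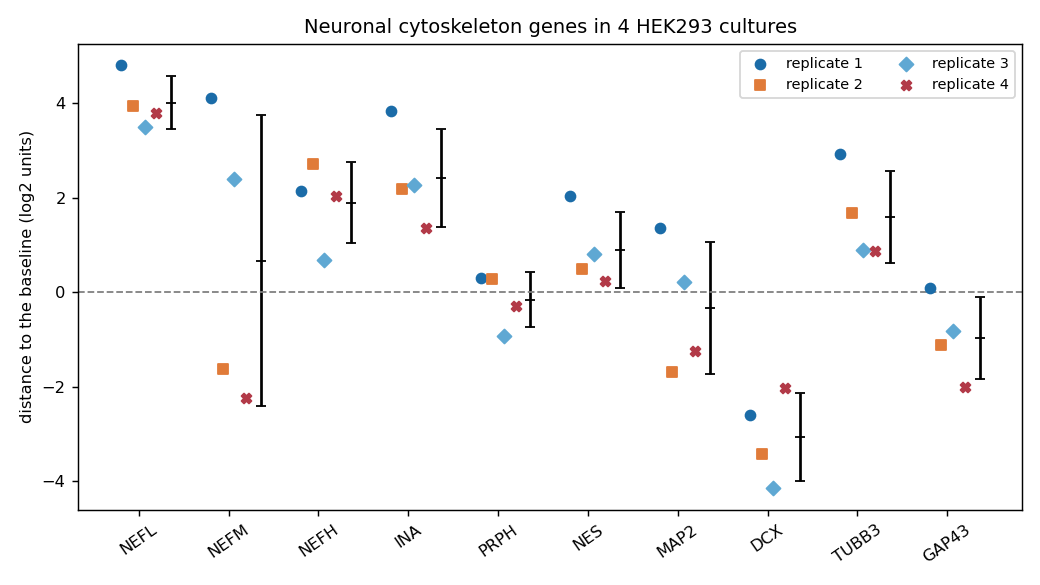
Distance of each gene to the baseline of the same array, in log2 units, for the 4 replicates, with the mean and SD (n = 4) as the bar on the right of each column and the baseline as the dashed line. NEFL lay between 3.50 and 4.81 on every array, DCX stayed below 0 on all 4, and NEFM ran from -2.24 to 4.10.

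The light subunit NEFL had levels of 14.27, 13.88, 14.19 and 14.11 log2 units on replicates 1 to 4. All 4 values were high and close together, with an SD of 0.17, and 91.8% of named genes varied at least as much. Its probes differed widely. The third, near the top of the scale, averaged 15.04 with an SD of 0.25 and weighs most in the linear mean of the probes. The second ran from 12.53 to 14.83 with an SD of 1.00, and the first averaged 9.08 and was above the baseline on 1 array. The mean distance of NEFL was 4.01 ± 0.56 log2 units (SD, n = 4), and it was 2.94 where the log2 values of the probes were averaged instead. On each array it exceeded all 364 olfactory receptor genes, which serve here as a second set of genes not usually transcribed in such cells.

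The medium subunit NEFM, which pairs with NEFL in the filament, had levels of 13.57, 8.32, 13.09 and 8.08 on replicates 1 to 4. It was high on replicates 1 and 3 and low on replicates 2 and 4, with no value between. The distances were 4.10, -1.62, 2.40 and -2.24, so their mean of 0.66 ± 3.08 (SD, n = 4) lay near no array, and it was -0.49 without replicate 1. NEFM outranked 86.5% of named genes on replicate 1 and 82.6% on replicate 3, but 31.6% on replicate 2 and 27.3% on replicate 4. On the high arrays it stood above all 364 olfactory receptor genes, whereas 8 of them were higher on replicate 2 and 18 on replicate 4. Its SD of 2.97 for the level was at least matched by 4 of 17217 genes, NEFM included.

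All 3 NEFM probes showed this division. The first probe read 14.04, 8.96, 13.80 and 7.97 on replicates 1 to 4. The second read 13.87, 8.63, 12.98 and 8.54. The third read 12.20, 5.98, 11.91 and 7.57. For each probe the lower of replicates 1 and 3 exceeded the higher of replicates 2 and 4 by at least 4.34 log2 units.

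In the annotation NEFL and NEFM are direct neighbours among protein-coding genes, and the other NEFM neighbour is ADAM7, a gene of the epididymis. ADAM7 had levels of 6.39, 6.70, 6.98 and 7.73 on replicates 1 to 4. Neither neighbour of NEFM was divided by several log2 units as NEFM was. However, ADAM7 lay below the baseline on every array, where a division could go unseen, and NEFL rests mostly on its brightest probe. Whether the region had a part in the division of NEFM was not tested.

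The heavy subunit NEFH ran the other way, with levels of 11.61, 12.65, 11.38 and 12.36 on replicates 1 to 4. Replicates 2 and 4 were above replicates 1 and 3, by a gap of 0.75 log2 units that 538 named genes equalled or passed in that direction. Each of its 3 probes read higher on replicates 2 and 4, with gaps of 0.59, 0.66 and 1.10. NEFH was above the baseline on every array, with a mean distance of 1.89 ± 0.86 (SD, n = 4) and its lowest value, 0.69, on replicate 3.

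INA had levels of 13.31, 12.13, 12.97 and 11.67 on replicates 1 to 4. Replicates 1 and 3 were the higher ones on each of its 3 probes, although the gap was 0.84 for the gene, against 4.77 for NEFM. INA was above the baseline on all 4 arrays, with a mean distance of 2.41 ± 1.04 (SD, n = 4).

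PRPH read 9.76, 10.22, 9.77 and 10.03, and it lay at the baseline. Its distance was above 0 on replicates 1 and 2 and below on replicates 3 and 4, with a mean of -0.16 ± 0.58 (SD, n = 4), or 0.094 without replicate 3. One of its 3 probes was above the baseline on all 4 arrays, at 10.87 to 11.34, and the other probes were above it on 0 arrays.

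The progenitor filament NES had levels of 11.51, 10.42, 11.49 and 10.56 on replicates 1 to 4. It cleared the baseline on all 4 arrays by a mean of 0.89 ± 0.80 log2 units (SD, n = 4), with replicates 1 and 3 higher by a gap of 0.94. The third probe read highest, at 11.53 to 12.76, while the first and second were each above the baseline on 1 array.

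**Figure D2:**
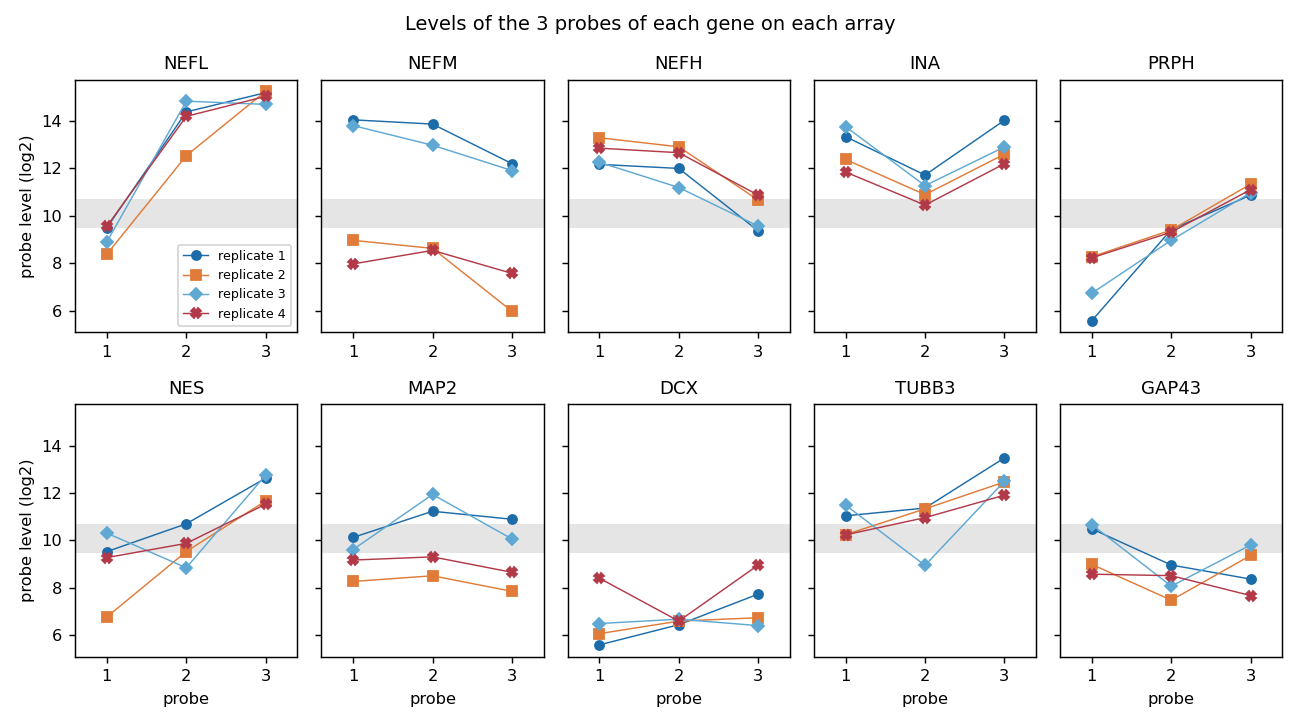
Level of each of the 3 probes of the 10 genes, in log2 units, with a line and marker for each replicate and a grey band from the lowest to the highest array baseline (9.47 to 10.69). The replicates are farthest apart for NEFM on all 3 of its probes, with replicates 2 and 4 below the band, and NEFH has replicates 2 and 4 on top.

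Among the microtubule proteins, MAP2 showed the next widest division, with levels of 10.82, 8.24, 10.91 and 9.07 on replicates 1 to 4. Replicates 1 and 3 were high and replicates 2 and 4 low, on each of the 3 probes, and 82 named genes had a gap at least as large as its 1.75 log2 units in that direction. The distance was above 0 on replicates 1 and 3 only, and its mean was -0.34 ± 1.40 (SD, n = 4), or 0.11 without replicate 2.

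TUBB3 had levels of 12.40, 11.62, 11.58 and 11.20 and did not divide the arrays, since replicates 2 and 3 were nearly equal. It was above the baseline on all 4 arrays, with a mean distance of 1.59 ± 0.97 (SD, n = 4) and the highest value on replicate 1.

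DCX had levels of 6.86, 6.50, 6.53 and 8.29 on replicates 1 to 4 and a mean distance of -3.06 ± 0.93 (SD, n = 4). Its level on replicates 1, 2 and 3 was within the olfactory receptor genes, of which 76, 116 and 334 were higher. On replicate 4 only 10 of the 364 were higher. The higher level on replicate 4 lay in 2 of its 3 probes, which read 8.41 and 8.96 there, and the remaining probe stayed at 6.45 to 6.68 on all arrays.

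GAP43 had levels of 9.56, 8.81, 9.86 and 8.31. It was above the baseline on replicate 1 alone, by 0.09 log2 units, and its mean distance was -0.97 ± 0.87 (SD, n = 4). Replicates 1 and 3 were higher than replicates 2 and 4, but 1 of its 3 probes divided the arrays in that way.

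The deposited values had the form that normalization in 2 pairs gives, replicates 1 with 2 and replicates 3 with 4. These pairs were inferred from the values and are not named in the processing notes. Differences within such a pair are free of a shift between the pairs. NEFM was 5.25 log2 units higher on replicate 1 than on replicate 2 and 5.01 higher on replicate 3 than on replicate 4. Its lower value in each pair was below the baseline, so these are differences between readings and no fold change of the transcript is given. Differences as large, in either direction, occurred in 0.0348% and 0.0232% of named genes. The median absolute difference of a gene was 0.40 within the first pair and 0.42 within the second, and 3.02% and 1.28% of genes differed by 2 log2 units or more.

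MAP2 read 2.58 log2 units higher on replicate 1 than on replicate 2 and 1.84 higher on replicate 3 than on replicate 4, with the lower value of each pair again below the baseline. GAP43 read higher by 0.75 and 1.55 log2 units in the same order, with 3 of its 4 values below the baseline. INA and NES were above it on all arrays, and INA was higher by 2.26-fold and 2.46-fold and NES by 2.13-fold and 1.92-fold. NEFH was lower on replicates 1 and 3, with differences of -1.05 and -0.98 log2 units. NEFL differed by 0.39 and 0.08 log2 units, less than the median gene in both pairs. Its brightest probe differed by -0.06 and -0.34, its second by 1.84 and 0.64 and its first by 1.12 and -0.66. The median difference of single probes was not computed, so these are not set against it.

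**Figure D3:**
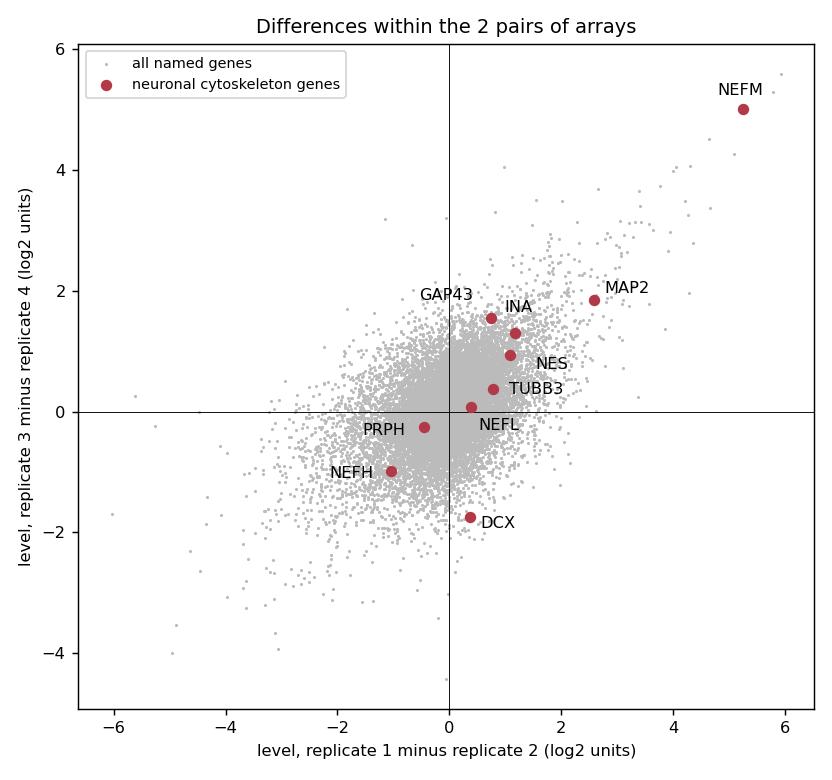
Difference in level between replicates 1 and 2 (horizontal, log2 units) and between replicates 3 and 4 (vertical, log2 units) for all 17217 named genes in grey and the 10 neuronal cytoskeleton genes in red. NEFM lies at the upper right edge of all genes (5.25 and 5.01), MAP2 stands next (2.58 and 1.84), and NEFH lies on the opposite side of 0 (-1.05 and -0.98).

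In all, 6 of the 10 genes had a higher level on both replicates 1 and 3 than on either of replicates 2 and 4, beside 22.2% of all named genes. They were NEFL, NEFM, INA, NES, MAP2 and GAP43, with gaps from 0.08 for NEFL to 4.77 for NEFM. The reverse order was held by NEFH and PRPH, 2 of 10, beside 18.5% of all named genes. At the level of probes, 15 of 30 read higher on replicates 1 and 3, beside 21.1% of all probes, and 5 of 30 read higher on replicates 2 and 4, beside 16.8%. All 3 probes agreed on the first order for NEFM, INA and MAP2, 3 of 10 targets, beside 4.27% of all targets with 3 probes, and on the reverse for NEFH, 1 of 10, beside 3.08%. The labels give no difference between these arrays, no test was made of the division, and its source was not tested.

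The division was not particular to these genes. The 3 named genes with larger gaps than NEFM, named after their values were seen, were PSMD5, a proteasome chaperone, PTN, a growth factor, and SOX11, a transcription factor of young neurons. Their gaps were 5.58, 5.16 and 5.07 log2 units. Also chosen after its values were seen, the synaptic vesicle protein SYT1 read 9.73, 13.41, 9.80 and 12.71 on replicates 1 to 4, and 8 genes had a gap as large as its 2.92 in the reverse order. CRMP1, a growth cone protein picked in the same way, read 12.39, 10.82, 12.22 and 11.10.

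The wider cytoskeleton was described with gene lists, on which limma's two-sided test of distances against 0 was adjusted over all 17217 genes. It placed 45.8% of all genes above the baseline and 41.1% below. Of 18 intermediate filament and lamin genes of other cell types, 9 were above, 6 below and 3 neither, with a median distance of 0.74. VIM, the filament of mesenchymal cells, stood at 5.26 ± 0.64, the lamins LMNB2 at 4.85 ± 0.60 and LMNA at 2.98 ± 0.60, and the simple-epithelium keratins KRT8 at 4.80 ± 0.66 and KRT18 at 1.32 ± 0.50 (SD, n = 4 each). KRT20 of gut epithelium and BFSP2 of the lens were lowest, at -3.57 ± 0.53 and -3.52 ± 0.49. In this list 9 of 18 genes were higher on replicates 1 and 3 and 3 of 18 on replicates 2 and 4. Over all named genes these shares were 22.2% and 18.5%.

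Of 20 tubulins other than TUBB3, 12 were above, 5 below and 3 neither, and the median distance was 2.13. TUBA1B at 5.47 ± 0.60, TUBB2B at 5.33 ± 0.71, TUBB6 at 5.19 ± 0.55 and TUBB4B at 5.14 ± 0.77 led them, with TUBB at 4.89 ± 1.10 (SD, n = 4 each). TUBA3C and TUBA3D were lowest, at -1.87 ± 0.52 and -1.55 ± 1.06. Tubulin genes are near-identical in places, and the probe sequences were not examined, so values of single tubulins, TUBB3 included, are uncertain. The arrays were divided as for NEFM in 2 of 20 and in reverse in 5 of 20, beside 22.2% and 18.5% of all named genes.

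Of 24 matched genes for microtubule-associated proteins, stathmins and doublecortin relatives, 13 were above, 7 below and 4 neither, with a median distance of 1.09. DPYSL2 at 4.72 ± 0.69, the plus-end binders MAPRE1 at 4.66 ± 0.77 and MAPRE2 at 4.11 ± 0.55, and MAP1B at 4.35 ± 0.73 led (SD, n = 4 each). MAPT, the axonal protein tau, lay at 1.20 ± 0.37 and the widespread stathmin STMN1 at 3.25 ± 0.88. The neuronal stathmins STMN2 and STMN4 were lowest, at -3.12 ± 0.51 and -2.95 ± 0.48. In this list 8 of 24 were higher on replicates 1 and 3 and 3 of 24 on replicates 2 and 4. The shares over all named genes were 22.2% and 18.5%.

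Membrane proteins like GAP43 and calmodulin partners had 10 of 12 above, 1 below and 1 neither, with a median of 3.81. The calmodulins CALM3 and CALM2 stood at 5.37 ± 0.68 and 5.02 ± 0.81, and MARCKSL1 and MARCKS, which bind calmodulin at the membrane, at 4.60 ± 0.87 and 4.58 ± 0.85 (SD, n = 4 each). NRGN, the neuronal calmodulin binder neurogranin, was lowest at -3.50 ± 0.41. Of 17 matched genes on a list made up mostly of cytolinkers, kinases and motors, 10 were above, 4 below and 3 neither, with a median of 2.36. Not all of these are known to act on neurofilaments. MARK3 at 4.51 ± 0.56, the motors KIF5B at 4.49 ± 0.37 and DYNC1H1 at 4.47 ± 0.39, and CDK5, a kinase of neurofilament tails, at 4.22 ± 0.62 led the list. MARK1 and MARK4 were lowest, at -2.28 ± 0.70 and -2.26 ± 1.18.

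REST lay above the baseline on all 4 arrays, with levels of 10.09, 11.42, 12.07 and 11.19 on replicates 1 to 4 and a distance of 1.09 ± 0.41 (SD, n = 4). Replicate 1 was the lowest and replicate 3 the highest. The activity of REST was not measured, and its part in the division of NEFM was not tested. Of 15 genes for REST, its corepressors and the PTB splicing regulators, 13 were above, 0 below and 2 neither. Over all named genes 45.8% were above and 41.1% below. All 15 mean distances were above 0, beside 52.7% of all named genes. KDM1A at 5.06 ± 0.63, HDAC2 at 4.94 ± 0.69, HDAC1 at 4.63 ± 0.60 and SIN3A at 4.53 ± 0.65 led. PTBP1, which represses neuronal splicing, stood at 4.28 ± 0.66, and PTBP2, its neuronal relative, at 0.04 ± 0.78 (SD, n = 4 each).

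Markers of neurons, glia and neural progenitors, kidney epithelium and adrenal medulla were read in the same way. Of 25 matched neuronal markers outside the cytoskeleton, 7 were above, 12 below and 6 neither, with a median distance of -0.59. For this list and those that follow, the shares over all named genes were 45.8% above and 41.1% below. A call rests on the mean, so a called gene can lie on both sides of the baseline. SYT1 was called above with distances of 0.26, 3.48, -0.89 and 2.39 on replicates 1 to 4. On all 4 arrays 5 of 25 markers were above, beside 45.0% of all named genes. UCHL1 at 5.22 ± 0.70, ENO2 at 4.75 ± 0.59, SYP at 3.09 ± 0.89 and NCAM1 at 2.79 ± 0.53 were the highest that cleared the baseline on all arrays, whereas NEUROD1, NEUROG1 and ELAVL4 lay at -3.46 ± 0.54, -3.34 ± 0.28 and -2.91 ± 0.68 (SD, n = 4 each). In the neuronal list 10 of 25 genes were higher on replicates 1 and 3 and 4 of 25 on replicates 2 and 4. The shares over all named genes were 22.2% and 18.5%. Glial and progenitor markers had 2 of 14 above and 8 below, kidney epithelium markers 4 of 17 above and 12 below, and adrenal medulla markers 0 of 11 above and 10 below, with all 11 mean distances below 0. The glial marker AIF1, chosen after its values were seen, was called below although its distances on replicates 2 and 4 were 1.40 and 0.64. The kidney list ran from the nephron transporter SLC12A1, among its lowest at -3.23 ± 0.51, to KRT8, EPCAM at 3.84 ± 0.90, KRT18 and the proximal tubule receptor LRP2 at 1.27 ± 0.68, which were above on all 4 arrays (SD, n = 4 each). These counts rest on the baseline. With the mean plus 3 SD of the controls as baseline the neuronal list had 4 above and 18 below. The glial list then had 1 and 12, the kidney list 2 and 13 and the adrenal list 0 and 11. Without AFG2A and SPATA13 the neuronal list had 16 above and 6 below, the glial list 8 and 2, the kidney list 7 and 4, and the adrenal list 3 and 5. Tubulins then had 19 of 20 above, and 2 of 24 microtubule-associated genes were below. Without replicate 2 the neuronal list had 4 above, and without replicate 2 or replicate 4 the glial list had 1. Without replicate 4, 2 cytolinkers, kinases or motors were below in place of 4. All 10 widely used reference genes were above, with a median of 4.16. On the glial and kidney lists 3 of 14 and 3 of 17 genes were higher on replicates 1 and 3, beside 22.2% of all named genes. The reverse order was held by 7 of 14 and 7 of 17, beside 18.5%. The part of any other cell type in the division was not tested.

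**Figure D4:**
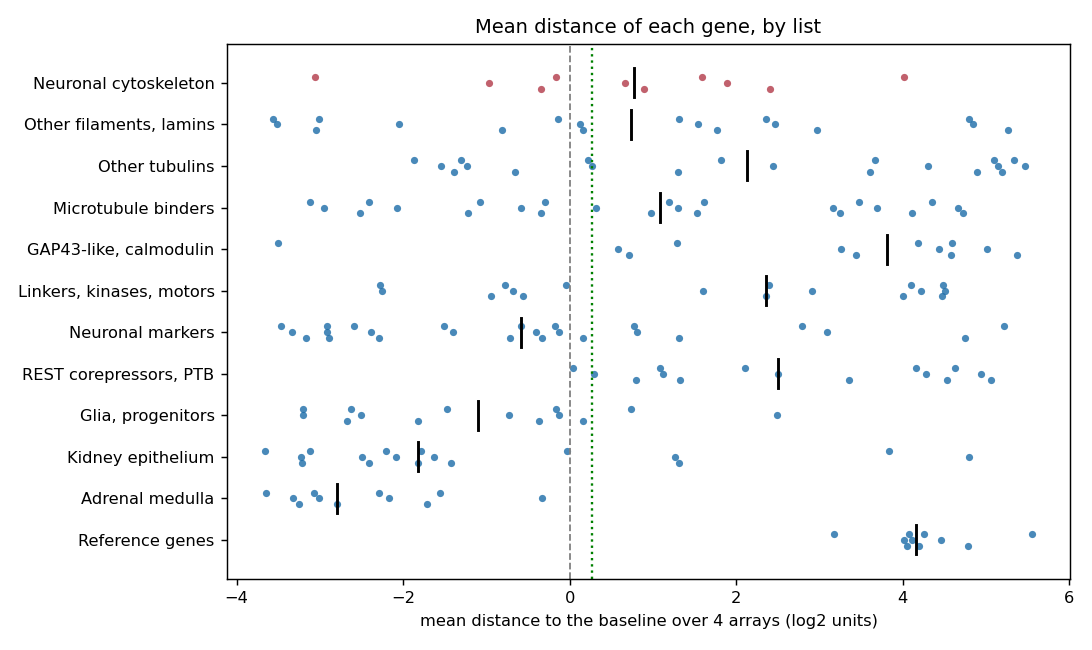
Mean distance of each gene to the baseline over 4 arrays (log2 units), for the 10 neuronal cytoskeleton genes in red and 11 other lists in blue, with a black bar at each list's median, a dashed line at the baseline and a dotted green line at the median of all genes (0.26). The 10 genes run from -3.06 to 4.01 around a median of 0.78, and the adrenal medulla list lies wholly below 0.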

How the data were processed

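The authors deposited log2 values per probe for 4 single-colour NimbleGen arrays designed on the HG18 gene catalogue. The submitters' processing notes name RMA, with no role given. After sorting, 99.97% of the values of replicate 1 matched those of replicate 2 to within 0.01, as did 99.99% for replicates 3 and 4, but only 1.23% to 1.25% across the pairs. Quantile normalization within each pair gives this form. No raw intensities were used, so background and saturation were not examined, and the number of arrays limits the precision.

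Accessions in the probe names were matched without versions to RefSeq genes of GRCh38.p14, which named 19125 of 24000 targets and 17217 genes. It was used for names and neighbours, and array coordinates are not given. Probes of a target were averaged on the linear scale and the average was log2 transformed, and targets of a gene were then averaged. The baseline was the mean plus 2 SD of 10 matched control genes of the 11 in the study's methods. Gene distances were tested against 0 with limma 3.58 in R 4.3, two-sided, with Benjamini-Hochberg adjustment at 0.05. Its prior degrees of freedom were infinite, so every gene took a standard error of 0.351. Genes on an array share its baseline, so their tests were not independent, and the smallest p of an exact sign-flip test on 4 arrays is 0.125. The fit was tested on simulated data in which all genes had the same spread and shared no baseline, unlike the genes here. A gap is the lower value of 1 pair of replicates minus the higher value of the other pair.

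The 10 genes and the 11 context lists (178 of 181 genes matched, with DCLK2, KIF5C and RBFOX3 unmatched) were chosen with earlier results of these data known. From each list the text names up to 4 genes of highest mean distance that cleared the baseline on every array, up to 2 of lowest mean distance, and a short fixed set (VIM, KRT8, KRT18, TUBB, MAPT, MAP1B, STMN1, STMN2, ELAVL4, REST, PTBP1). Outside these rules, SYT1, CRMP1 and AIF1 were named from the lists after their values were seen. Alternatives changed the baseline, the controls, the summary of probes, the normalization, the arrays used and the test.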

Additional observations from a re-analysis of the deposited data

Results flagged for a closer look

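Of 51 sets of 4 array values that were examined for a value standing apart by Dixon's criterion, 1 passed the critical value at 95%, where chance alone gives about 1 in 20. It was the second probe of TUBB3, which read 8.95 on replicate 3, while the other arrays gave 10.96 to 11.37, so that the gap was 0.833 of the whole range. The remaining TUBB3 probes read 11.49 and 12.50 on replicate 3, within or above the range of the other arrays. These remaining probes were higher on replicates 1 and 3 than on replicates 2 and 4, unlike the level of the gene. The reason for the low reading was not tested.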

How the results depend on the processing

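The place of the baseline decided which genes near it counted as above. With the mean plus 1 SD of the controls 9 of the 10 genes had a mean distance above 0, and PRPH (1.16), MAP2 (0.97) and GAP43 (0.35) turned positive, while 42 instead of 64 context genes were called below. With plus 3 SD the count was 4 and NEFM (-0.66) and NES (-0.43) turned negative, and 2 genes instead of 5 cleared it on all arrays. Without the 2 highest controls, AFG2A and SPATA13, 9 genes cleared it on all arrays, PRPH, MAP2 and GAP43 stood at 2.17, 1.98 and 1.36, and 24 context genes were below. With olfactory receptor genes as controls the values were 8 genes, distances of 1.92, 1.74 and 1.11, and 26 context genes, with 16 neuronal markers above and 6 below, 7 and 3 glial, and 6 and 4 kidney markers. These settings moved the baseline from 10.10 to 8.79, 11.42, 7.78 and 8.02, and with it the share of all genes above to 64.3%, 39.1%, 74.0% and 71.4%. With plus 3 SD the list of microtubule-associated genes had 8 above and 11 below, in place of 13 and 7. The list of REST, its corepressors and the PTB regulators then had 9 and 2, in place of 13 and 0.

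Single arrays decided 3 signs. Leaving out 1 array at a time gave distances of -0.49 (without replicate 1) to 1.63 (without replicate 4) for NEFM, -0.91 (without replicate 1) to 0.11 (without replicate 2) for MAP2, and -0.31 (without replicate 1) to 0.094 (without replicate 3) for PRPH. With replicates 1 and 2 alone PRPH was 0.29, with replicates 1 and 3 alone MAP2 was 0.79, and with replicates 2 and 4 alone NEFM was -1.93. The same omissions gave 5 to 7 genes above on average and 5 above on every array used, and 82 to 88 context genes above and 59 to 68 below. Settings chosen after the data were seen showed NEFM's gap of replicates 1 and 3 over 2 and 4 at 4.02 to 4.87 and MAP2's at 0.89 to 1.75. The gap of INA fell to 0.09 and that of NES to 0.32 when distances replaced levels, that of GAP43 to -0.03 with the median of its probes, and that of NEFL to -0.44 with distances. The gap of TUBB3 rose from -0.04 to 0.03 with the median of its probes and to 0.12 with quantile normalization of all 4 arrays. Across these settings 5 to 7 genes were higher on replicates 1 and 3. With distances, 0 genes kept the reverse order, as the gaps of NEFH and PRPH were -0.10 and -0.58, because the baselines of the arrays differ. Limma with a trend on intensity and robust priors called 84 context genes above and 61 below, beside 88 and 64 in the report. With the inferred pair of arrays as a block (correlation 0.34) it called 83 and 60. No paired analysis was possible because the series holds 1 group.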
